A study of Mus musculus with 19 samples.

Results

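Mural cells are the contractile cells that wrap blood vessels: pericytes on capillaries and vascular smooth muscle cells on arteries and veins. The 10 genes described here are known for their use in these cells, and were taken by symbol from the deposited table of RNA sequencing counts. They are Abcc9, Kcnj8, Rgs5, Cspg4 and Notch3, set here as pericyte genes, and Acta2, Tagln, Myh11, Cnn1 and Mylk, set here as contractile genes. All 10 of the 10 were found among the 55487 genes of the table, and all 10 were among the 16909 genes with enough counts to be tested. The samples were mouse oral squamous cell carcinomas (strain C57BL/6J) induced with 4-nitroquinoline 1-oxide (4NQO), a DNA-damaging carcinogen. Every group drank it at 100 µg/ml for 10 weeks, starting when the mice were 6 weeks old. The 19 libraries comprised 4 of regorafenib (5 mg/kg/day), 5 of regorafenib with anti-PD1 (the combination), 3 of anti-PD1, 3 of an agonist antibody against CD40 (anti-CD40) and 4 of vehicle. Regorafenib inhibits a range of kinases, which include PDGFRB and the receptors through which vessels respond to vascular endothelial growth factor. Anti-PD1 blocks an inhibitory receptor of T cells, and CD40 activates antigen-presenting cells. The labels state no separate dose for the combination, no dose for either antibody and no age at sampling, and the treatment protocol does not mention the anti-CD40 group, which was taken from the sample titles. Nor do they say whether each sample came from its own animal. The p-values therefore describe only how these samples vary, and some of that variation may be technical.

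Pericytes are recruited to new vessels by platelet-derived growth factor B from endothelium, which signals through the receptor PDGFRB on the pericyte, and Notch signalling from endothelium keeps them and smooth muscle cells in their mature state. Contraction runs through myosin light chain kinase, which phosphorylates myosin, and the genes of the contractile apparatus are switched on together by serum response factor and its partner myocardin at a DNA element called the CArG box. None of the 10 genes is restricted to vessels: salivary gland myoepithelium and activated fibroblasts can also express contractile genes, Abcc9 also encodes a potassium channel subunit of skeletal muscle, and NOTCH3 is also found in squamous epithelium.

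Library totals ran from 16776177 to 24969492 counts. The 10 genes together held 0.0466% to 0.0488% of counts in regorafenib libraries, 0.0558% to 0.0637% in combination, 0.0532% to 0.0727% in anti-PD1, 0.05% to 0.0619% in anti-CD40 and 0.0496% to 0.0555% in vehicle libraries. Counts per library were lowest for Cnn1 (22 to 325) and Kcnj8 (131 to 316) and highest for Rgs5 (2334 to 5203). The keratinocyte keratins Krt14 and Krt5 stood at 1503 CPM (TMM-scaled counts, as a rate that corrects for library size) or more in every library, so the labelled squamous tissue was present. Skeletal muscle genes were also abundant: a list of 19 summed to 29610 to 37888 CPM in regorafenib, 41571 to 56227 in combination, 44487 to 53427 in anti-PD1, 39935 to 61714 in anti-CD40 and 44770 to 52178 in vehicle libraries. A list of 12 salivary gland genes, of which 10 had enough counts to be summed, ranged from 38.2 to 19394 CPM across vehicle libraries alone. The regorafenib libraries also held transcripts of stomach: Pgc, which encodes the digestive enzyme precursor pepsinogen C, had 41.2, 38.2, 5.46 and 51.9 CPM there and 2.35 CPM or less in every other library. By summed CPM, a list of 8 stomach genes was not confined to these libraries. It summed to 82.3 to 553 CPM in regorafenib, 0.71 to 600 in combination and 0.763 to 1088 in anti-PD1 libraries. In anti-CD40 it summed to 1.16 to 75.5 CPM and in vehicle to 0.397 to 288 CPM. The sums of 1088 CPM in anti-PD1 1, 600 in combination 5 and 288 in vehicle 2 stood beside 16562, 18369 and 19394 CPM of the gland list. The part of gland in them was not tested. By mean log2 CPM, which weighs each gene alike, the stomach list was 0.941 to 3.11 in regorafenib libraries and 0.0921 or less in every other library. These are bulk samples, in which fewer cells of a type and less RNA per cell cannot be told apart.

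Per kilobase of exon, Rgs5 had the highest mean level over the 19 libraries, at 38.7 CPM per kb. Acta2 (22.7), Tagln (13.4), Notch3 (11.5) and Abcc9 (11.0 CPM per kb) followed. Myh11 had 7.12, Kcnj8 4.19, Mylk 2.51, Cspg4 1.72 and Cnn1 1.58 CPM per kb. Tagln, Notch3 and Abcc9 were close on this scale, as were Cspg4 and Cnn1, and their order is not separated by the spread between libraries. The ratio of the highest to the lowest library ran from 1.32 for Notch3 to 14.2 for Cnn1. Anti-PD1 1 was the highest library for all 5 contractile genes, anti-CD40 2 was the highest for Abcc9, Kcnj8 and Rgs5, and regorafenib 4 was the lowest for the same 3. The mean log2 CPM of the 5 pericyte genes was 5.40 ± 0.05 with regorafenib, 5.72 ± 0.17 with the combination, 5.70 ± 0.05 with anti-PD1, 5.73 ± 0.15 with anti-CD40 and 5.69 ± 0.15 with vehicle (SD over libraries), and all 4 regorafenib libraries lay below every other library. For the 5 contractile genes it was 4.36 ± 0.26, 4.58 ± 0.37, 4.92 ± 0.72, 4.31 ± 0.30 and 4.39 ± 0.38 in the same order of groups, and the ranges of all 5 groups overlapped. Among the pericyte genes, Cspg4 and Notch3 did not share the low regorafenib levels. Cspg4 was highest in regorafenib 4, and Notch3 had its highest group mean with regorafenib.

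**Figure D1:**
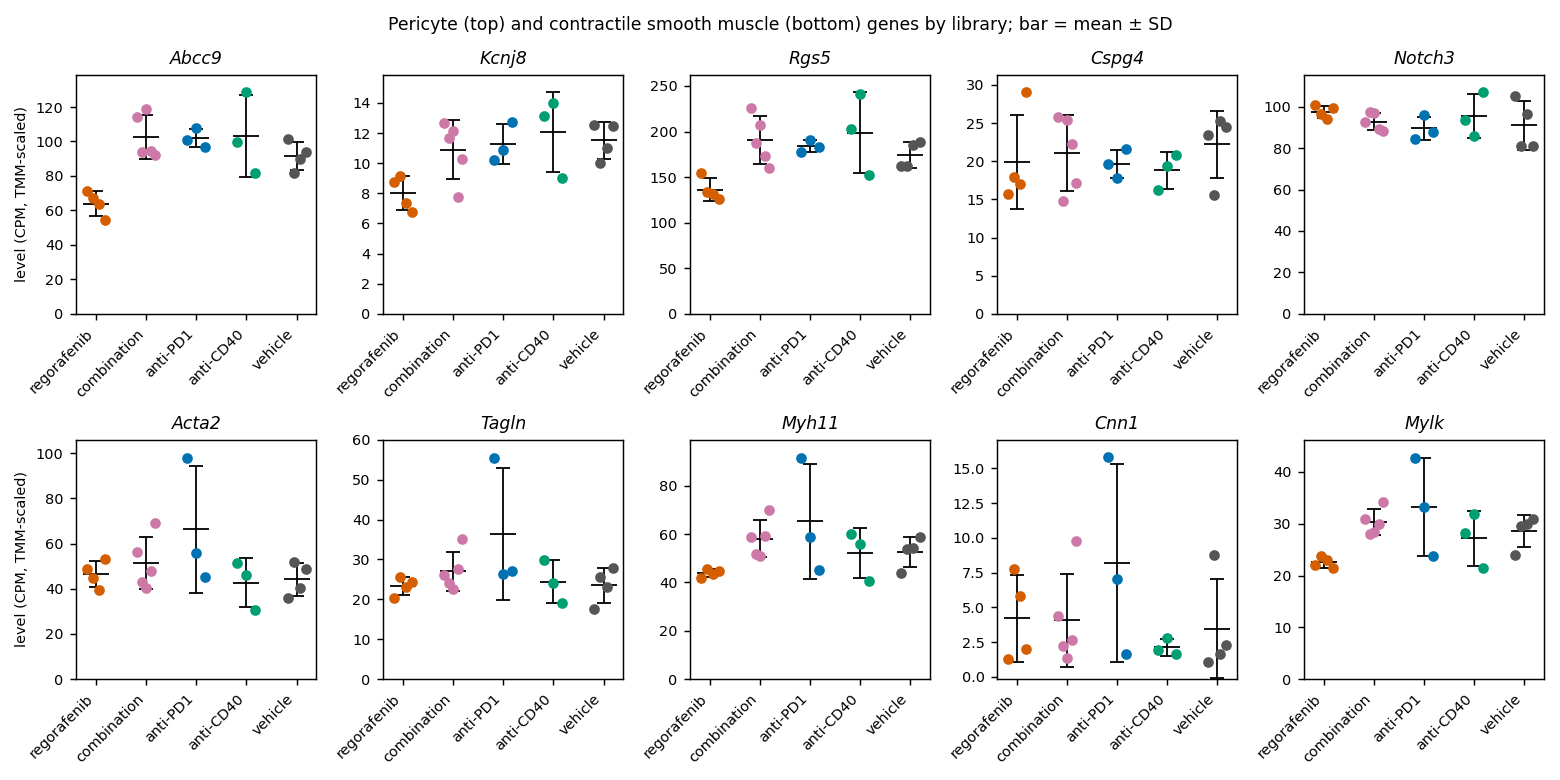
Level of each gene (y axis, TMM-scaled CPM) in every library of the 5 groups (x axis), with 1 point per library and bars for mean ± SD. Abcc9 lies between 54.3 and 71.0 CPM in the 4 regorafenib libraries, below all other libraries, while the contractile genes share 1 high library, anti-PD1 1.

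Abcc9 fell with regorafenib alone. It encodes the sulfonylurea receptor subunit of ATP-sensitive potassium channels. Its channel partner Kcnj8, the regulator of G-protein signalling Rgs5 and the kinase Mylk were also lower in all 4 regorafenib libraries than in any vehicle library, without passing the test. Notch3, Acta2 and Tagln differed from vehicle by about 0.10 or less on the log2 scale. The intervals of Acta2 (-0.43 to 0.57) and Tagln (-0.48 to 0.46) were wider than that of Notch3 (-0.07 to 0.27). The comparison asks what the kinase inhibitor did to vessel-wall genes of the tumours, and its test was edgeR's quasi-likelihood test with adjustment over all genes tested.

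Abcc9 (chr6:142587862-142702315, minus strand of GRCm38, whole gene) had 71.0, 67.0, 63.7 and 54.3 CPM in the regorafenib libraries and 101, 81.7, 90.1 and 93.7 CPM in the vehicle libraries. The 2 groups did not overlap, and the nearest libraries were regorafenib 1 and vehicle 2. The means were 64.0 ± 7.11 CPM with regorafenib and 91.7 ± 8.08 CPM with vehicle (SD, n = 4 each). The log2 change was -0.52 ± 0.12 (SE, 95% interval -0.77 to -0.26), a fold of 0.698, with an adjusted p of 0.0204. The call was lost without regorafenib 4 (adjusted p 0.0733), without vehicle 1 (0.0501) or without vehicle 4 (0.0624).

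The promoters of Abcc9 and Rgs5, the 2 genes of the 10 that passed a test in any comparison, are shown as the 250 bases before the RefSeq transcription start on GRCm38.p6. They lie at chr6:142702275-142702524 on the minus strand and chr1:169655251-169655500 on the plus strand. Both are in lower case throughout, since neither window held a CArG box, a CArG box with 1 mismatch in its A/T core, or the RBPJ motif GTGGGAA through which Notch signals, searched on both strands.
Abcc9: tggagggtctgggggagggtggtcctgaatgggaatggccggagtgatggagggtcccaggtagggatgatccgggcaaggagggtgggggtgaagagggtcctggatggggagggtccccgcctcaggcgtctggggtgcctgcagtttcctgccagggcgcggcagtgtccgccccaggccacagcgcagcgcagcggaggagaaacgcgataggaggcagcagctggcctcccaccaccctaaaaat
Rgs5: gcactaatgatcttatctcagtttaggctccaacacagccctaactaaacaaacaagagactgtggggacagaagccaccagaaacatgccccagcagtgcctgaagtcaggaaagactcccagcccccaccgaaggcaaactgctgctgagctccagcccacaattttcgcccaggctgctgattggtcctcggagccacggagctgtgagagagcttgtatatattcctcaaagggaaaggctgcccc
Their base composition differed: 66.8% of the Abcc9 window was G or C, and 53.6% of the Rgs5 window. RefSeq promoters were matched for 8 of the 10 genes, without Tagln and Myh11. Over 32851 mouse promoters of the same length, 1.47% held the CArG box, 8.59% the form with 1 mismatch and 5.42% the RBPJ motif.

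Kcnj8 (chr6:142564837-142571614, minus strand) encodes the pore-forming subunit that pairs with the Abcc9 product in mural cells, and it lies 16247 bases from Abcc9. Kcnj8 had 8.77, 9.17, 7.38 and 6.78 CPM with regorafenib and 12.6, 10.0, 11.0 and 12.5 CPM with vehicle. All 4 regorafenib libraries were lower than the lowest vehicle library, by a gap smaller than the spread within either group. On the log2 scale the change was -0.52 ± 0.16 (SE), the same size as that of Abcc9, with an adjusted p of 0.0527.

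Rgs5 (chr1:169655501-169695813, plus strand), which dampens G-protein signals in pericytes, had 154, 134, 131 and 126 CPM with regorafenib and 162, 162, 185 and 188 CPM with vehicle. The groups did not overlap, but regorafenib 1 lay close to vehicle 1 and vehicle 2. The log2 change was -0.35 ± 0.12 (SE), with an adjusted p of 0.0798. Mylk (chr16:34745210-35002420, plus strand), the myosin light chain kinase gene, had 22.0, 23.8, 23.1 and 21.4 CPM with regorafenib and 23.9, 29.6, 29.9 and 30.9 CPM with vehicle. Vehicle 1 was within 1 CPM of the highest regorafenib library, and the other vehicle libraries stood higher. On the log2 scale the change was -0.34 ± 0.14 (SE), with an adjusted p of 0.152.

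Cspg4 (chr9:56865033-56899870, plus strand) encodes a surface proteoglycan of pericytes that is also made by other cells. It had 15.7, 17.9, 17.1 and 29.0 CPM with regorafenib and 23.4, 15.6, 25.2 and 24.5 CPM with vehicle. Regorafenib 4 was the highest of all 19 libraries, the other 3 regorafenib libraries were lower than 3 of the 4 vehicle libraries, and the groups overlapped (log2 change -0.15 ± 0.21 SE, adjusted p 0.685). Notch3 (chr17:32120820-32166852, minus strand), the Notch receptor of mural cells, had 101, 96.5, 94.2 and 99.2 CPM with regorafenib and 105, 81.1, 96.4 and 81.2 CPM with vehicle. Vehicle 2 and vehicle 4 were lower than every regorafenib library, vehicle 1 was higher, and vehicle 3 lay among them. Its log2 change was 0.10 ± 0.08 (SE; 95% interval -0.07 to 0.27), with an adjusted p of 0.455.

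Of the 4 contractile genes other than Mylk, none passed with regorafenib. Acta2, smooth muscle actin (chr19:34241090-34255590, minus strand), had 48.6, 44.8, 39.3 and 53.0 CPM with regorafenib and 36.1, 51.8, 40.3 and 48.8 CPM with vehicle, 2 overlapping groups. Its log2 change was 0.07 ± 0.23 (SE; 95% interval -0.43 to 0.57). Tagln, the actin-binding protein transgelin (chr9:45929619-45936058, minus strand), averaged 23.3 ± 2.29 CPM with regorafenib and 23.6 ± 4.37 CPM with vehicle (SD, n = 4 each). Myh11, smooth muscle myosin heavy chain (chr16:14194535-14291372, minus strand), had 41.7, 45.6, 43.5 and 44.6 CPM with regorafenib and 43.7, 54.0, 54.1 and 58.7 CPM with vehicle. The regorafenib libraries lay at the low end of the vehicle range, overlapping vehicle 1 alone (log2 change -0.26 ± 0.17 SE, adjusted p 0.37). Cnn1, calponin (chr9:22099216-22109630, plus strand), had 1.26, 7.80, 5.86 and 1.99 CPM with regorafenib and 1.11, 8.77, 1.65 and 2.33 CPM with vehicle. Within each group Cnn1 was several times higher in some libraries than in others, and its interval for the log2 change ran from -1.44 to 2.04.

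The promoter of Acta2 is shown because it was the only 1 of the 8 matched windows with a CArG-like motif. It lies at chr19:34255374-34255623 on the minus strand of GRCm38.p6. Capitals mark 2 matches with 1 mismatch each in the A/T core, CCCTATATGG and CCTTGTTTGG, which begin 84 and 34 bases before the RefSeq start. No window held an exact CArG box or the RBPJ motif.
Acta2: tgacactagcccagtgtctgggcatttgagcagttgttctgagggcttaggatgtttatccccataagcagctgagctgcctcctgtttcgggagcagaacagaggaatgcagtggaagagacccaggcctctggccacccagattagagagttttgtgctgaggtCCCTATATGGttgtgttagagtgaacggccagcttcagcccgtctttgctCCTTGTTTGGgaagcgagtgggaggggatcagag
The levels of this gene did not pass a test in any of the comparisons below.

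Read against all genes, 1 of the 10 members was called with regorafenib, beside 6.32% of the 16909 genes tested (562 higher and 507 lower), which is close to this background. Of the 10 members 4 were lower in every regorafenib library than in any vehicle library, beside 7.88% of all genes. The median log2 change was -0.35 over the 5 pericyte genes and -0.01 over the 5 contractile genes, and 0.00 over all genes tested. Other cell types moved in the same libraries. Of 19 skeletal muscle genes 17 were lower with regorafenib and 8 passed the test (median log2 change -0.43), all 19 being detected. Of 12 blood endothelial genes all 12 were lower and 0 passed (median -0.30), with sums of 336 to 413 CPM with regorafenib and 377 to 538 CPM with vehicle. Of 8 stomach genes 6 were called higher with regorafenib. Of 5 visceral smooth muscle genes all 5 were lower and 1, Synpo2, passed the test. That list is mostly Des by CPM (mean 1089 CPM with regorafenib, beside a mean list sum of 1270 CPM). Des and Synpo2 are also expressed in skeletal muscle, and the part of that muscle in the list was not tested. The part of stomach tissue in the members' values was not tested. Of 5 myoepithelium genes 3 were higher and 2 lower. The 2 called were Krt14 and Krt5, both higher, which are also the keratinocyte keratins named above. Lmod1 (-0.15) and Kcnmb1 (-0.11) of that list were lower and not called. Of 12 fibroblast genes 1 was called in each direction. With the skeletal muscle score as a covariate the Abcc9 change was -0.32 (adjusted p 0.115), and with the endothelial score, a setting chosen after seeing the data, it was -0.33 (adjusted p 0.162).

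**Figure D2:**
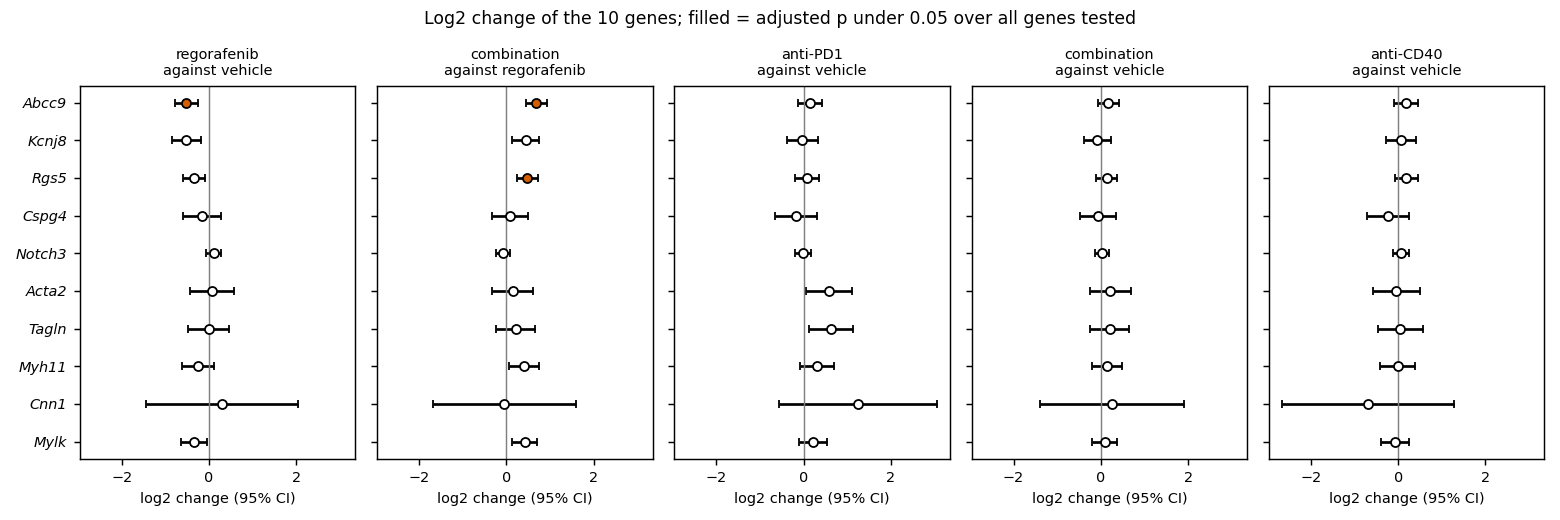
Log2 change of each gene with its 95% interval (x axis) in 5 comparisons (panels), with filled points for an adjusted p under 0.05 over all genes tested. The filled points are Abcc9 at -0.52 with regorafenib against vehicle, and Abcc9 at 0.68 and Rgs5 at 0.48 with the combination against regorafenib.

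With anti-PD1 added to regorafenib, Abcc9 and Rgs5 were higher than with regorafenib alone. Mylk and Myh11 were also higher in all 5 combination libraries than in any regorafenib library, without passing the test. Cspg4, Notch3 and Cnn1 differed by less than 0.10 on the log2 scale, but were not equally well measured. The interval for the log2 change was -0.23 to 0.09 for Notch3 and -0.34 to 0.50 for Cspg4. For Cnn1 it was -1.68 to 1.59, too wide to tell a change in either direction from none. This comparison shares the regorafenib libraries with the one against vehicle, so low regorafenib libraries enter both.

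Abcc9 had 114, 93.7, 119, 94.7 and 92.4 CPM in the combination libraries, against 54.3 to 71.0 CPM in the regorafenib libraries. The groups did not overlap, with 2 combination libraries high and 3 close to the vehicle level. The log2 change was 0.68 ± 0.12 (SE; 95% interval 0.44 to 0.93), a fold of 1.61, with an adjusted p of 0.00504. The call held without any 1 of the 9 libraries in turn (0.61 to 0.74 on the log2 scale, largest adjusted p 0.0273).

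Rgs5 had 225, 187, 207, 173 and 160 CPM in the combination libraries, against 126 to 154 CPM in the regorafenib libraries. Combination 5 was the nearest to the regorafenib libraries, and no value overlapped. On the log2 scale the change was 0.48 ± 0.11 (SE; 95% interval 0.24 to 0.72), a fold of 1.40, with an adjusted p of 0.0157. Without regorafenib 4 it was 0.45 with an adjusted p of 0.0606.

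Mylk had 30.9, 28.0, 28.4, 29.9 and 34.2 CPM in the combination libraries, against 21.4 to 23.8 CPM with regorafenib. The 2 ranges did not overlap, and the log2 change was 0.42 ± 0.14 (SE) with an adjusted p of 0.0545. Myh11 had 58.6, 51.7, 51.0, 59.1 and 69.8 CPM, against 41.7 to 45.6 CPM with regorafenib. It was higher in every combination library, by a log2 change of 0.41 ± 0.17 (SE) with an adjusted p of 0.122. Kcnj8 had 12.6, 11.7, 12.1, 7.75 and 10.3 CPM, against 6.78 to 9.17 CPM with regorafenib. Combination 4 fell inside the regorafenib range, and the log2 change was 0.44 ± 0.15 (SE) with an adjusted p of 0.0647.

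Acta2 averaged 51.3 ± 11.6 CPM with the combination (SD, n = 5) and 46.4 ± 5.82 CPM with regorafenib (SD, n = 4), with an adjusted p of 0.709 from the fit over all genes. Tagln averaged 27.1 ± 4.91 CPM and Cspg4 21.1 ± 4.95 CPM with the combination, against 23.3 ± 2.29 and 19.9 ± 6.15 CPM with regorafenib. Notch3 averaged 92.8 ± 4.23 CPM with the combination and 97.6 ± 2.86 CPM with regorafenib. The ranges of both groups overlapped for each of these 4 genes, and none passed the test.

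Of the 10 members, 2 were called between the combination and regorafenib, beside 10.5% of all genes tested, and 4 were higher in every combination library, beside 7.24% of all genes. The median log2 change was 0.44 over the pericyte genes and 0.21 over the contractile genes, and -0.01 over all genes tested. All 19 skeletal muscle genes were higher with the combination and 9 passed (median 0.50), and 11 of 12 endothelial genes were higher and 0 passed (median 0.21, sums of 400.5 to 507 CPM with the combination and 336 to 413 CPM with regorafenib). With the skeletal muscle score as a covariate, Abcc9 changed by 0.42 (adjusted p 0.122) and Rgs5 by 0.22 (adjusted p 0.405). With the endothelial score, Abcc9 kept its call (0.54, adjusted p 0.0161) and Rgs5 did not (0.33, adjusted p 0.056).

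With anti-PD1 alone the contractile genes were higher in 1 library, and no member passed the test. Acta2 had 98.1, 55.8 and 45.1 CPM with anti-PD1, against 36.1 to 51.8 CPM with vehicle. Tagln had 55.6, 26.5 and 27.1 CPM with anti-PD1, against 17.7 to 27.9 CPM with vehicle. In both genes anti-PD1 1 stood apart and the other 2 libraries lay within or near the vehicle range. The log2 change was 0.59 ± 0.25 (SE) for Acta2, with an unadjusted p of 0.0327 and an adjusted p of 0.478, and 0.63 ± 0.24 for Tagln, with 0.0173 and 0.41, all from the edgeR fit. Without anti-PD1 1 the changes were 0.19 for Acta2, 0.19 for Tagln, -0.02 for Myh11, -0.01 for Mylk and 0.33 for Cnn1.

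Myh11 had 91.7, 58.8 and 45.2 CPM with anti-PD1, Mylk 42.8, 33.2 and 23.7 CPM, and Cnn1 15.8, 7.08 and 1.66 CPM. Vehicle libraries had 43.7 to 58.7 CPM of Myh11, 23.9 to 30.9 CPM of Mylk and 1.11 to 8.77 CPM of Cnn1. Anti-PD1 1 was again the highest and anti-PD1 3 within or below the vehicle range. Anti-PD1 1 also summed to 1372 CPM over the 12 fibroblast genes, the highest of all libraries (948 and 1035 CPM in the other anti-PD1 libraries, and 857 to 1055 CPM with vehicle). The part of fibroblasts in the contractile levels was not tested. The salivary gland list summed to 16562, 7560 and 47.0 CPM with anti-PD1, against 38.2 to 19394 CPM with vehicle, and with its score as a covariate the 5 contractile changes were 0.11 to 0.69 with adjusted p of 0.453 or more. The pericyte genes were close to vehicle. Abcc9 averaged 102 ± 5.34 CPM with anti-PD1 (SD, n = 3) and 91.7 ± 8.08 CPM with vehicle (SD, n = 4), and Rgs5 184 ± 6.57 and 174 ± 14.4 CPM. No gene of the whole table was called (0%), while 1576 had an unadjusted p under 0.05 and DESeq2 called 80.

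The combination and anti-CD40 each left the 10 genes at levels not separable from vehicle. Abcc9 averaged 103 ± 12.7 CPM with the combination (SD, n = 5), 103 ± 23.7 CPM with anti-CD40 (SD, n = 3) and 91.7 ± 8.08 CPM with vehicle (SD, n = 4). Its 95% interval for the log2 change was -0.08 to 0.40 for the combination and -0.10 to 0.44 for anti-CD40. Rgs5 averaged 190 ± 26.2 CPM with the combination, 199 ± 44.3 CPM with anti-CD40 and 174 ± 14.4 CPM with vehicle. The anti-CD40 libraries were the most spread for both genes: Abcc9 had 99.8, 129 and 81.5 CPM and Rgs5 had 203, 241 and 152 CPM. Anti-CD40 2 was the highest and anti-CD40 3 the lowest of the group for both, in the order of their skeletal muscle scores.

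Notch3 varied least over the 19 libraries. It averaged 92.8 ± 4.23 CPM with the combination (SD, n = 5), 89.5 ± 5.74 with anti-PD1 and 95.5 ± 10.6 with anti-CD40 (SD, n = 3 each), against 90.9 ± 11.8 CPM with vehicle (SD, n = 4). Its 95% interval was -0.13 to 0.19 on the log2 scale for the combination against vehicle. Among the contractile genes the combination gave log2 changes of 0.08 to 0.25 and anti-CD40 -0.69 to 0.05 against vehicle, with the smallest adjusted p over all 10 members at 0.655 and 0.867. Over all genes 0.0237% were called with the combination (4, all lower) and 0% with anti-CD40 (0, with 1025 at an unadjusted p under 0.05 and 5 called by DESeq2). All 4 comparisons against vehicle share its libraries.

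Between the combination and anti-PD1 no member was called, beside 0.00591% of all genes. All 5 contractile genes were lower with the combination, by log2 changes of -0.99 to -0.13, and the smallest adjusted p was 0.569 for Tagln. For Acta2, Tagln, Myh11 and Mylk this direction hung on anti-PD1 1: without it the changes were 0.025, 0.018, 0.16 and 0.090 in that order. Cnn1 stayed lower whichever library was left out, at -1.60 to -0.074. The pericyte genes differed by -0.05 to 0.10. The interaction of regorafenib and anti-PD1 asks whether the combination departed from the sum of the single changes, and called no member, beside 0.627% of all genes. Abcc9 had the largest positive term at 0.53 ± 0.17 (SE), with an unadjusted p of 0.00684 and an adjusted p of 0.141 from the edgeR fit. Kcnj8 followed at 0.47 ± 0.22 (adjusted p 0.316) and Rgs5 at 0.41 ± 0.17 (adjusted p 0.256). In the joint test of all 5 groups Abcc9 passed (adjusted p 0.02), beside 4.49% of all genes, and Rgs5 (0.0557), Kcnj8 (0.112) and Mylk (0.123) came next.

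Within the 10 genes, 2 sets moved together from library to library. Abcc9, Kcnj8 and Rgs5 had Pearson's r of 0.83 to 0.92 between pairs over the 19 libraries, on log2 CPM, and Spearman's rho of 0.76 to 0.85. After the treatment group means were subtracted r was 0.73 to 0.83, and without the 2 libraries farthest from the median it was 0.69 to 0.89. The largest permutation p of these 3 pairs, adjusted over the 45 pairs of the 10 genes, was 0.000129 for r and 0.0018 for rho. The 5 contractile genes had r of 0.58 to 0.96 over their 10 pairs and rho of 0.55 to 0.88, with Mylk and Myh11 the closest pair. Within groups r was 0.62 to 0.94, and all 10 pairs had an adjusted p of 0.0225 or less, though without the 2 farthest libraries the lowest r was 0.28.

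Across these 2 sets r ran from -0.18 to 0.63 over 15 pairs. By r only Mylk with Abcc9 and Mylk with Rgs5 passed, and within treatment groups the largest such r was 0.30. By rho Myh11 with Rgs5 passed as well (0.53, adjusted permutation p 0.0464). Notch3 ran against the contractile genes, with r of -0.64 to -0.52 (within groups -0.67 to -0.55). Of these 5 pairs 4 passed by r and all 5 by rho (largest adjusted permutation p 0.0399). Its r with Abcc9, Kcnj8 and Rgs5 was -0.33 to -0.24 and none passed. Cspg4 followed none of the other 9 genes (r of -0.37 to 0.11, none passing).

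**Figure D3:**
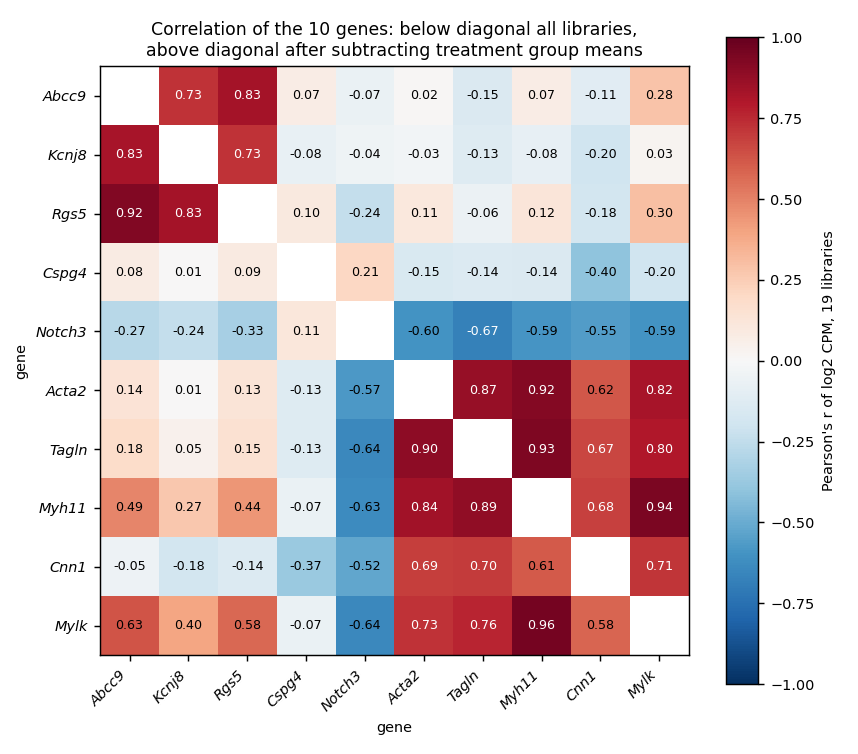
Pearson's r between each pair of the 10 genes over 19 libraries on log2 CPM (rows and columns are genes, colour and printed value are r), with all libraries below the diagonal and values after subtracting treatment group means above it. Blocks of high r join Abcc9, Kcnj8 and Rgs5 (0.73 to 0.92) and the 5 contractile genes (0.58 to 0.96).

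The 10 genes were also set against 4 list scores (the mean log2 CPM of a list), which gave 40 relations, and whether the sets differ in them was not tested. With the skeletal muscle score r was 0.86 for Rgs5 (rho 0.87, each with a permutation p of 1e-05, the smallest the permutations can give, adjusted p 0.000133 for r), 0.85 for Abcc9 (rho 0.75), 0.79 for Kcnj8 (rho 0.71) and 0.67 for Mylk (rho 0.74), and all 4 passed (largest adjusted p 0.0079 for r and 0.00505 for rho). Myh11 passed by rho (0.65, adjusted p 0.0134) but not by r (0.53, adjusted p 0.051). Within treatment groups r was 0.74 for Rgs5, 0.74 for Abcc9, 0.66 for Kcnj8 and 0.51 for Mylk, and without the 2 farthest libraries 0.77, 0.76, 0.68 and 0.62 in the same order. With the endothelial score r was 0.74 for Rgs5, 0.70 for Kcnj8, 0.69 for Abcc9 and 0.58 for Mylk, and all 4 passed (largest adjusted p 0.0345). The muscle and endothelial scores are themselves measured in the same libraries, and which of them a vessel gene follows was not tested.

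Cnn1 moved with the salivary gland score: r was 0.89 and rho 0.87 (adjusted p 0.000133 and 0.0002), 0.91 within groups and 0.85 without combination 5 and vehicle 2. In the 4 regorafenib libraries, for example, the 7.80 and 5.86 CPM of Cnn1 stood beside 7268 and 6240 CPM of the gland list, and the 1.26 and 1.99 CPM beside 469 and 46.2 CPM. The other contractile genes had r of 0.47 to 0.52 with this score and did not pass (smallest adjusted p 0.051), and Notch3 had -0.49 (adjusted p 0.0657). With the fibroblast score Abcc9 had the highest r, 0.59 (adjusted p 0.0345; rho 0.72, adjusted p 0.00411), which was 0.66 without combination 1 and anti-PD1 1, the 2 libraries farthest from the median. Mylk (0.58, adjusted p 0.0345) and Myh11 (0.57, adjusted p 0.0446) also passed by r but not by rho (adjusted p 0.142 and 0.262). Both relations rest on those 2 libraries, without which r was 0.29 for Mylk and 0.15 for Myh11, and Acta2 (0.50) and Tagln (0.47) had r of -0.08 and -0.13 without them.

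**Figure D4:**
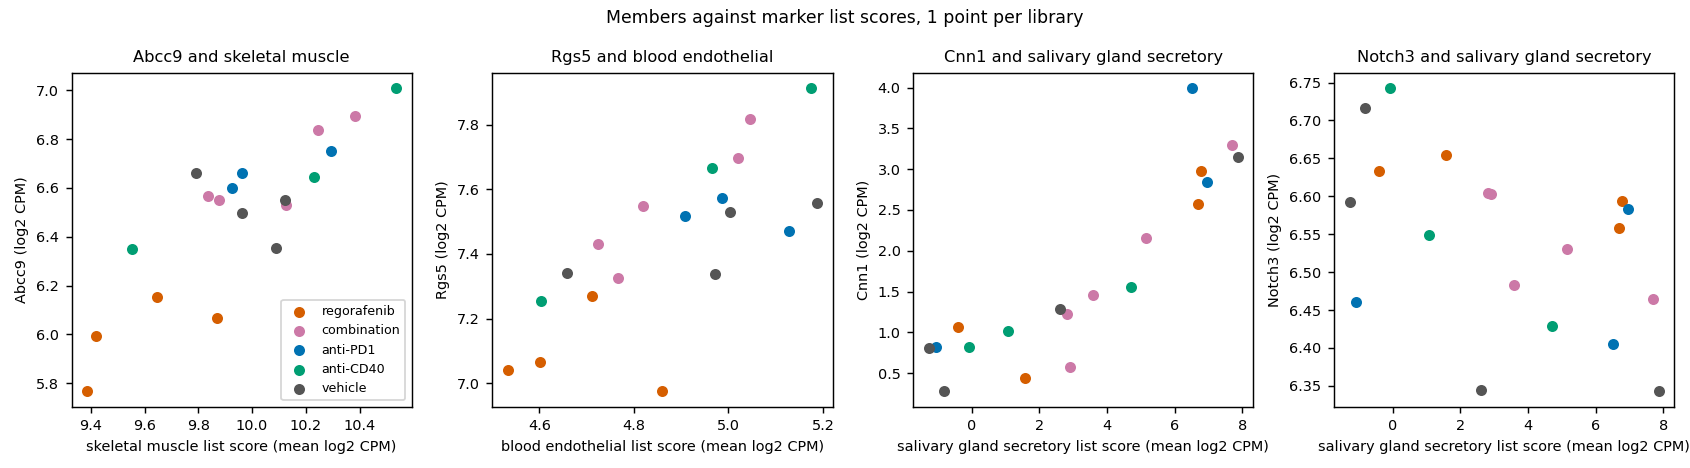
Log2 CPM of Abcc9, Rgs5, Cnn1 and Notch3 (y axes) against the score of a marker list, its mean log2 CPM (x axes), with 1 point per library coloured by group. Abcc9 and Rgs5 rise with the skeletal muscle and endothelial scores (r of 0.85 and 0.74), Cnn1 with the salivary gland score (r of 0.89), and Notch3 falls with it (r of -0.49).

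Calls in the wider pathways are read against 6.32% of all genes with regorafenib against vehicle and 10.5% with the combination against regorafenib. Of 6 platelet-derived growth factor genes, Pdgfrb, the receptor on mural cells, fell with regorafenib (25.2 ± 3.26 CPM with regorafenib and 35.8 ± 3.91 CPM with vehicle, SD, n = 4 each; log2 change -0.51, adjusted p 0.0385 from edgeR), and the list's median was -0.20. With the combination against regorafenib, Pdgfrb (0.52, adjusted p 0.0214) and Pdgfra, the receptor on fibroblasts (0.59, adjusted p 0.0126), rose. Of 14 Notch genes 1 fell with regorafenib, the Notch target Hey1 (-0.56, adjusted p 0.0186), and the median was -0.24 with 12 of 14 lower. The 14 include Enpep (-0.28) and Nrip2 (-0.02), which are neither Notch ligands nor Notch receptors. No Notch gene passed between the combination and regorafenib, where Heyl, another target, had the smallest p (0.48, adjusted p 0.0714).

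Of 12 genes of serum response factor and myocardin, Myocd itself fell with regorafenib (0.232 ± 0.085 CPM with regorafenib and 0.577 ± 0.153 CPM with vehicle, SD, n = 4 each; log2 change -1.27, adjusted p 0.0486), while the list's median was 0.05. The Myocd call rests on few reads, and the nearest libraries, regorafenib 4 and vehicle 3, had 0.355 and 0.373 CPM. Smad3, a mediator of transforming growth factor signals, rose with the combination against regorafenib (0.21, adjusted p 0.0469). The interaction term passed for Csrp1, a partner of serum response factor (-0.60, adjusted p 0.0442). Of 3 channel genes tested with the 2 members among them, Kcnj11, the channel pore of skeletal muscle, was 23.2 ± 2.69 CPM with regorafenib and 30.9 ± 3.46 CPM with vehicle (SD, n = 4 each), and rose with the combination against regorafenib (0.47, adjusted p 0.0239). Abcc8 had too few counts to be tested.

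Of 14 genes around myosin light chain kinase and phosphatase, 4 passed with regorafenib. Ppp1r12b, a subunit of the phosphatase found in striated muscle (-0.68, adjusted p 0.00136), and Mylk3, the cardiac kinase (-1.03, adjusted p 0.0177), fell. Tagln2 (0.51, adjusted p 0.0106), a more widely expressed transgelin, and the light chain gene Myl6 (0.21, adjusted p 0.0349) rose. Against regorafenib, Ppp1r12b rose with the combination (0.68, adjusted p 0.00106) and Myl6 (-0.30, adjusted p 0.00505) and Tagln2 (-0.34, adjusted p 0.0325) fell. The interaction term passed for Ppp1r12b (0.85, adjusted p 0.0103).

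A further 26 mural cell genes, which include Pdgfrb again, had a median log2 change of -0.28 with regorafenib, and 21 of the 26 were lower. The 3 that fell were Synpo2, an actin-binding protein (-0.51, adjusted p 0.0226), Pdgfrb, and Vtn, vitronectin of pericytes (-0.63, adjusted p 0.04). Cald1, which encodes caldesmon, rose (0.42, adjusted p 0.0337). With the combination against regorafenib 7 rose and 0 fell (median 0.30), among them Synpo2 (0.59, adjusted p 0.00758), Pdgfrb, Des, the intermediate filament desmin (0.47, adjusted p 0.0306), and Gucy1a1, a subunit of the nitric oxide receptor (0.63, adjusted p 0.0357). Des and Synpo2 are also expressed in skeletal muscle, as are Tpm1 and Tpm2 of the list, lower with regorafenib (-0.34 and -0.36, not called). Skeletal muscle genes moved the same way in both comparisons, and the part of that muscle in these changes was not tested.

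**Figure D5:**
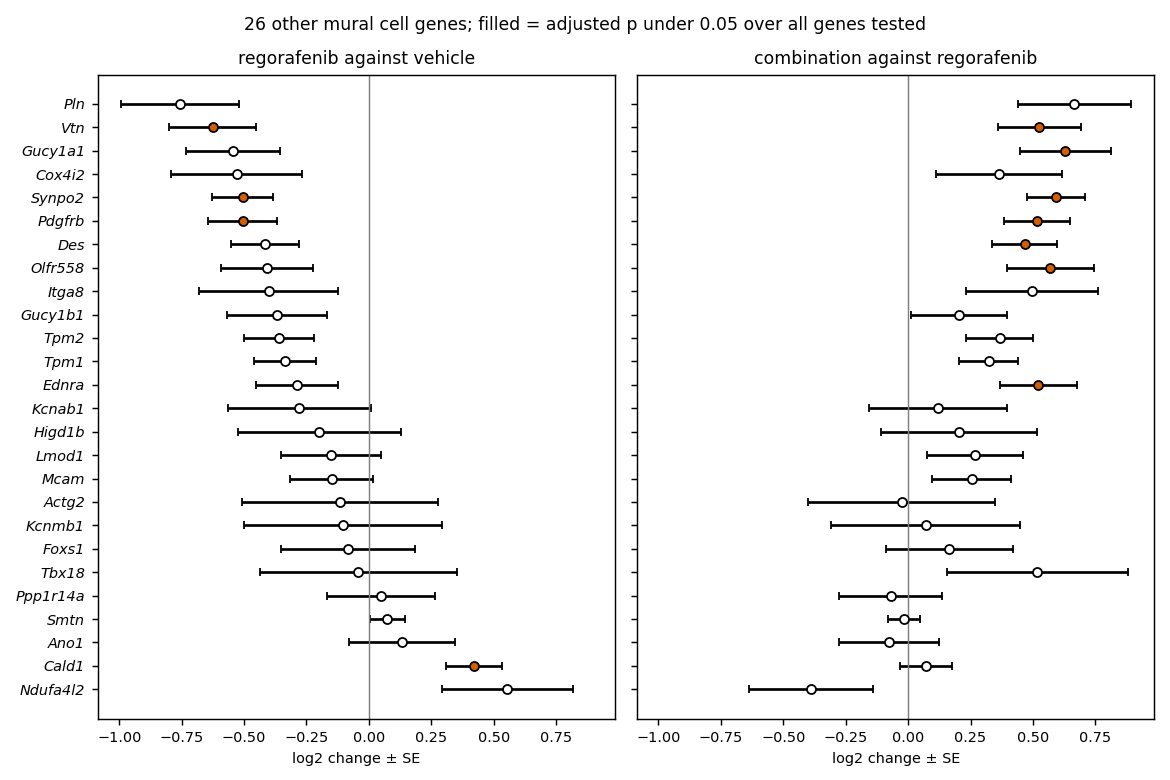
Log2 change ± SE (x axis) of 26 other mural cell genes (y axis) with regorafenib against vehicle and with the combination against regorafenib, with filled points for an adjusted p under 0.05. Of the 26, 21 lie left of 0 with regorafenib and 21 lie right of 0 with the combination against regorafenib.

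In the joint test of all 5 groups, 1 of the 14 Notch genes passed (Hey1, adjusted p 0.0467), 2 of the 12 of serum response factor and myocardin (Tgfbr2, 0.0491, and Csrp1, 0.0494), 3 of the 14 around myosin light chain kinase and phosphatase (Ppp1r12b, 0.00527, Myl6, 0.0324, and Tagln2, 0.0419) and 2 of the 26 mural cell genes (Synpo2, 0.0324, and Cald1, 0.0408), beside 4.49% of all genes. No gene of these lists passed in the 3 other comparisons against vehicle or between the combination and anti-PD1. With anti-PD1 against vehicle the smallest p of each list belonged to Pdgfra (0.19, adjusted p 0.713), Hes1 (-0.39, 0.204), Csrp1 (0.39, 0.189), Actg2 (0.72, 0.61) and Ppp1r12a (-0.17, 0.358). With the combination against vehicle it belonged to Pdgfc (0.51, adjusted p 0.28), Notch1 (-0.34, 0.136), Tgfbr2 (0.27, 0.129), Cald1 (0.49, 0.113) and Tagln3 (-0.87, 0.292). With anti-CD40 against vehicle the smallest adjusted p in these lists was 0.814, shared by Notch1 (-0.29), Dll1 (-0.31) and Cald1 (0.31). Between the combination and anti-PD1 the smallest belonged to Csrp1 (-0.37, adjusted p 0.128) and Cald1 (0.39, 0.228).

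The genes most like the mean of the 5 pericyte members across the 19 libraries, of 13346 genes compared on log2 CPM, were Fxyd6 (r of 0.92), Stard8 (0.91), Prkaca (0.90), Ank2 (0.90) and Kdr (0.90), the endothelial receptor for vascular endothelial growth factor. Those most like the 5 contractile members were Lox, an enzyme that crosslinks collagen (0.91), Adh1 (0.90), Smoc2 (0.90), B3gnt3 (0.89) and Enho (0.88).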

How the data were processed

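RNA was measured in 19 libraries in 5 groups taken from the sample titles. The authors deposited raw, whole-number counts for each gene. The submitters' processing notes name GRCm38 as the build, with cutadapt 2.4 and STAR 2.7.2a. Per the labels' protocols, the libraries were stranded and polyA-selected. How reads were counted, on which strand and with which annotation is not given in the sources used here, so reads from overlapping genes could be split: Pcsk7, on the opposite strand to Tagln and sharing exon sequence with it, averaged 35.7 CPM, while the overlapping partners of Abcc9, Notch3 and Mylk averaged 0.144 CPM or less. Symbols, gene coordinates (1-based) and exon lengths came from GENCODE M21 on GRCm38, with 55227 of the IDs found once versions were removed (54435 with them) and 260 not found. Promoters came from RefSeq on GRCm38.p6.

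The filterByExpr function of edgeR 4.0.16 (R 4.3.3), applied by group, kept 16909 genes holding 99.92% of counts. After TMM scaling, edgeR fitted a robust quasi-likelihood model to the 19 libraries together, giving each group its own mean and leaving 14 residual degrees of freedom. P-values are two-sided and Benjamini-Hochberg adjusted across every gene tested, and 0.05 was the threshold. Levels are TMM-scaled CPM, log2 CPM used a prior count of 2, and the SE is the absolute log2 change over the square root of F. Relations used 100000 permutations (two-sided) in Python 3.11.15 with scipy 1.17.1, and figures matplotlib 3.10.9. Each pair of libraries differed by more than sampling noise (smallest chi-square 11.8 per degree of freedom). The fits were tested on simulated data.

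The 10 genes and all lists were chosen with earlier results of these data known. Genes named from a list are those with an adjusted p under 0.05 (at most the 4 with the smallest p), or the smallest p where none passed. The genes most alike are the 5 with the highest r to the mean z score of each set, among genes with an established symbol and a mean of 1 CPM or more. Alternatives tried were DESeq2 1.42.0, RLE scaling, a fit with no filter, a fit of only the compared groups, a replicate block, skeletal muscle or salivary gland scores as covariates, a prior count of 0.5 for scores, and leaving out each library in turn. An endothelial covariate and a fit without robust dispersions were added after seeing the data.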

Additional observations from a re-analysis of the deposited data

Results flagged for a closer look

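Of 30 groups of 4 or 5 libraries tested, 3 groups for each of the 10 genes, 2 held a library far from the others, and chance gives about 1 in 20. Cspg4 was 29.0 CPM in regorafenib 4, against 15.7 to 17.9 CPM in the other 3 regorafenib libraries. Cnn1 was 8.77 CPM in vehicle 2, against 1.11 to 2.33 CPM in the other 3 vehicle libraries. Vehicle 2 also had the highest salivary gland score of all libraries, 7.88 on the log2 CPM scale.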

How the results depend on the processing

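Leaving out single libraries moved the calls as described above: Abcc9 with regorafenib against vehicle kept its call in 5 of 8, at -0.57 to -0.45, and in the joint test of 5 groups in 16 of 19 (lost without regorafenib 1, 3 or 4). Member calls ran from 0 to 2 for regorafenib against vehicle, 1 to 3 for the combination against regorafenib and 0 to 3 for the joint test. The counts behind Cnn1, 22 to 325 per library, limit its precision.

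Members called with regorafenib against vehicle numbered 1, against 2 with RLE scaling, 3 with DESeq2, 4 with only the groups compared, 2 with the salivary gland covariate and 0 with the skeletal muscle or endothelial covariate. With the combination against regorafenib they numbered 2, against 4 with DESeq2, 4 with only the groups compared, 1 with the endothelial and 0 with the muscle covariate. In the joint test they numbered 1, against 4 with DESeq2, 2 with no filter and 0 with the muscle or endothelial covariate. The genes gained were Kcnj8, Rgs5, Mylk and Myh11, each in the direction reported. The cause of these shifts was not tested.

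Over all genes, regorafenib against vehicle called 1069, against 86 with the muscle, 123 with the endothelial and 1666 with the gland covariate, 1684 with DESeq2 and 269 to 1139 without 1 library. The combination against regorafenib called 1768, against 5 with the muscle and 494 with the endothelial covariate, 1094 with no filter and 484 to 1747 without 1 library. The joint test called 760, against 37 with the muscle, 88 with the endothelial and 1257 with the gland covariate, 2519 with DESeq2 and 39 to 1924 without 1 library. The interaction called 106, against 32 with the muscle and 298 with the gland covariate, 164 with only the groups compared, 582 with DESeq2 and 11 to 177 without 1 library. Anti-PD1 against vehicle called 0, against 3 with no filter, 2 with the muscle covariate, 1 without robust dispersions, 80 with DESeq2 and 0 to 2 without 1 library. The combination against vehicle called 4, against 11 with the muscle and 10 with the endothelial covariate, 1 with only the groups compared, 122 with DESeq2 and 0 to 7 without 1 library. Anti-CD40 against vehicle called 0, against 1 with RLE scaling, 1 with no filter, 5 with DESeq2 and 0 to 1 without 1 library. The combination against anti-PD1 called 1, against 10 with no filter, 6 with the muscle, 9 with the gland and 11 with the endothelial covariate, 110 with DESeq2 and 0 to 15 without 1 library.

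The replicate block, which pairs libraries by the number in their titles, gave 715 genes for regorafenib against vehicle, 1200 for the combination against regorafenib, 210 for the joint test, 36 for the interaction and 0 for the combination against anti-PD1, and changed no member call. The deviations of same-numbered libraries over 500 variable genes correlated at -0.49 to 0.76, and the labels name no shared source. Only anti-CD40 with vehicle had all 3 pairs over 0.1 (0.23, 0.76 and 0.70), and there 0 genes were called with the block as without it. Under the block Cnn1 turned to -0.16 for the combination against vehicle, and Kcnj8 to -0.015 for anti-CD40 against vehicle and to 0.012 for the combination against anti-PD1.

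Members that changed sign were uncalled and near 0 or poorly measured. With the muscle covariate these were Tagln (0.072) for regorafenib against vehicle, Kcnj8 (-0.031) for anti-CD40 against vehicle, Abcc9 (-0.011) for the combination against anti-PD1, Notch3 (0.022) and Acta2 (-0.057) for the combination against regorafenib, and Notch3 (0.029) and Myh11 (-0.042) in the interaction. With the endothelial covariate they were Cspg4 (0.073), Tagln (0.090) and Cnn1 (-0.11) for regorafenib against vehicle, Kcnj8 (0.027) for the combination against anti-PD1, and Cspg4 (-0.077) and Cnn1 (0.36) for the combination against regorafenib. With the gland covariate they were Cnn1 (-0.020) for regorafenib, Notch3 (0.024) for anti-PD1, and Cspg4 (0.062), Cnn1 (-0.25) and Mylk (-0.023) for the combination, each against vehicle. At a prior count of 0.5 the r of Rgs5 with the gland score was 0.016 in place of -0.0068.

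Without 1 library, signs turned within these ranges. For regorafenib against vehicle they were -0.016 to 0.16 for Acta2, -0.20 to 1.33 for Cnn1 and -0.13 to 0.079 for Tagln. For anti-PD1 against vehicle they were -0.13 to 0.038 for Kcnj8, -0.017 to 0.52 for Myh11, -0.0057 to 0.41 for Mylk and -0.076 to 0.053 for Notch3. For the combination against vehicle they were -0.35 to 1.29 for Cnn1, -0.21 to 0.028 for Cspg4, -0.14 to 0.020 for Kcnj8 and -0.022 to 0.11 for Notch3. For anti-CD40 against vehicle they were -0.0068 to 0.32 for Abcc9, -0.20 to 0.14 for Acta2, -0.999 to 0.34 for Cnn1, -0.049 to 0.23 for Kcnj8, -0.13 to 0.14 for Myh11, -0.19 to 0.072 for Mylk, -0.019 to 0.15 for Notch3 and -0.12 to 0.20 for Tagln. For the combination against anti-PD1 they were -0.045 to 0.053 for Abcc9, -0.58 to 0.025 for Acta2, -0.12 to 0.050 for Kcnj8, -0.37 to 0.16 for Myh11, -0.33 to 0.090 for Mylk, -0.015 to 0.11 for Rgs5 and -0.61 to 0.018 for Tagln. For the combination against regorafenib they were -0.65 to 0.44 for Cnn1 and -0.020 to 0.32 for Cspg4, and in the interaction -0.11 to 0.42 for Myh11, -0.13 to 0.0031 for Notch3 and -0.60 to 0.029 for Tagln.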
